A study of Homo sapiens with 12 samples.

Results

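The acetylated RNA intervals on 1 gene, NAT10, were followed along its length in 6 peak lists. Members were all rows whose gene name was NAT10, which gave 48 of the 61804 rows, at 17 distinct positions, on 1 of the 10870 genes with an interval in any list. The lists came from acRIP-seq of HaCaT, an established human keratinocyte line. In this assay an antibody against N4-acetylcytidine (ac4C) enriches RNA that bears it (IP), and this fraction is sequenced beside the starting RNA (input). Control cells received an empty vector and overexpression cells received NAT10 overexpression plasmids, with 3 replicates per group, an IP and an input library for each, and 12 libraries in all. Each replicate gave 1 list. The labels used here give neither the promoter of the plasmids nor the time after their delivery. They also do not say that replicates were separate cultures, so the variation among the lists of a group could be technical. The p-values do not measure the size of that variation.

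NAT10 is an RNA cytidine acetyltransferase that lies mainly in the nucleolus. It makes ac4C on the small-subunit ribosomal RNA and, with the adaptor THUMPD1, on certain transfer RNAs, and it has been reported to act on messenger RNA. Its yeast counterpart is Kre33, a factor of early small-subunit assembly. NAT10 messenger RNA is here both what the plasmids encode and a possible substrate of its own product.

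The gene lies on the plus strand of chromosome 11, from 34105629 to 34146908 in GRCh38 (RefSeq gene identifier 55226), and spans 41280 bases. Exon and untranslated-region annotation was not used here, so each interval is given by its coordinates and by its distance from the RefSeq gene start, and whether intervals match single exons was not tested. The lists do not separate RNA made from the plasmids from RNA of the chromosomal gene, and input read counts of NAT10 were not analysed here. More NAT10 RNA and more acetylation per RNA therefore cannot be told apart from these intervals. Read depth is unknown, since the lists hold no read counts.

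The gene start is shown first because 1 list had an interval there and that position is the only one on NAT10 that no overexpression list held. In control replicate 3 an interval of 191 bases ran from 34105602 to 34105792, with a fold of 5.01 and a score of 91.4. Fold is the authors' linear enrichment of the interval, and the score grows as the authors' p-value falls. It began 27 bases before the RefSeq gene start. The RefSeq sequence of the 250 bases before that start (GRCh38.p14, plus strand, chr11:34105379-34105628) is given here, with the 27 bases inside the interval in capitals:
NAT10 upstream: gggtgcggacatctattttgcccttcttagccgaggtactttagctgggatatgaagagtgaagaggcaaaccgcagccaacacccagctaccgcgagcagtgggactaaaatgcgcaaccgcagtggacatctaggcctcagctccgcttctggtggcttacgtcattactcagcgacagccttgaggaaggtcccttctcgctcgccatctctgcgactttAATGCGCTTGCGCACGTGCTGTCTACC
The window was 55.6% G or C, and the capitals were 59.3%. The other 5 lists had no interval at this position. An interval that reaches beyond the RefSeq span of its gene was not rare: 11.6% of the intervals of control replicate 3 with a RefSeq gene did so, and 5.2% to 15.8% over the 6 lists.

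NAT10 carried many more intervals in the overexpression lists than in the control lists. Control replicates 1, 2 and 3 listed 1, 2 and 2 intervals, and overexpression replicates 1, 2 and 3 listed 14, 14 and 15. Every overexpression list lay above every control list, and the counts within a group differed by no more than 1. The means were 1.67 ± 0.577 and 14.3 ± 0.577 intervals (SD, n = 3 per group), a ratio of 8.6 and a difference of 12.7 (two-sided exact permutation test over 20 labelled splits, p = 0.1, the smallest p that 3 against 3 allows). That p does not pass 0.05, and no arrangement of 6 lists could. More intervals in every overexpression list than in any control list were found for 42 of the 10870 genes, which is 0.386% of them. Leaving out control replicate 2 or 3 made it 192 or 88, and leaving out overexpression replicate 1, 2 or 3 made it 103, 95 or 481, while the NAT10 difference stayed between 12.3 and 12.8.

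The bases of the gene that lay inside an interval separated the groups too. Intervals covered 84, 218 and 308 bases in control replicates 1, 2 and 3 and 2397, 2397 and 1891 bases in overexpression replicates 1, 2 and 3. Overexpression replicate 3 had the most intervals and the fewest covered bases of its group. The means were 203 ± 113 and 2228 ± 292 bases (SD, n = 3 per group), a ratio of 11.0 and a difference of 2025 bases (two-sided exact permutation test, p = 0.1, again the smallest possible). As a share of the gene span this was 0.492% ± 0.273 and 5.40% ± 0.71 (SD, n = 3 per group). The span is genomic and includes any introns, so this is not the share of the messenger RNA. More covered bases in every overexpression list than in any control list were found for 90 genes, or 0.828% of those with an interval. That number became 241 or 162 when control replicate 2 or 3 was left out, and 186, 160 or 897 when overexpression replicate 1, 2 or 3 was, and 54 with a score of at least 100.

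**Figure D1:**
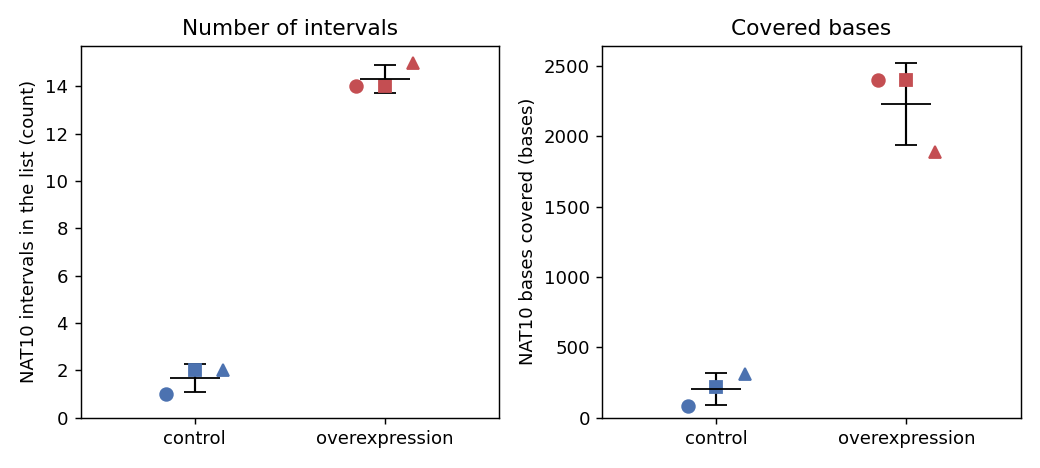
Number of NAT10 intervals (left) and NAT10 bases covered by them (right) in each of the 6 lists, with points for single replicates (circle, square and triangle for replicates 1, 2 and 3) and black marks for the group mean ± SD (n = 3). The control lists sit at 1 to 2 intervals and 84 to 308 bases, and the overexpression lists at 14 to 15 intervals and 1891 to 2397 bases.

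The intervals of the overexpression lists were spread along nearly the whole gene, starting 2580 bases after its start. Of the 17 positions, 13 were in all 3 overexpression lists with the same first and last base, and these were 62 to 172 bases long. Of these 13, 10 were in no control list, 2 were in 1 control list and 1 was in 2. The remaining positions were 1 listed by overexpression replicate 3 alone, 1 at the gene end listed in 2 lengths, which counts as 2 positions, and the 1 at the gene start in control replicate 3.

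**Figure D2:**
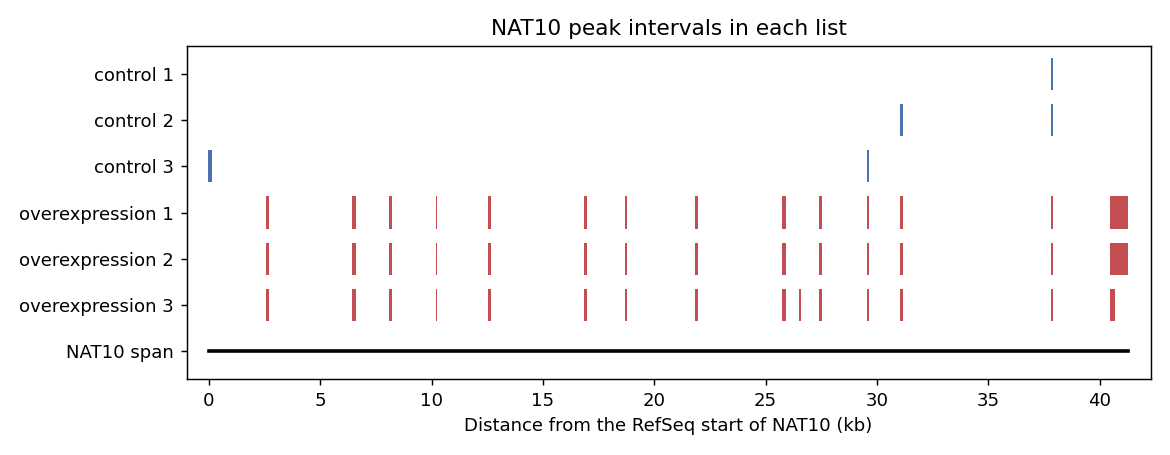
NAT10 intervals of each list, drawn to scale against the distance from the RefSeq gene start in kb, with the gene span as the black line. The 3 overexpression rows show the same series of narrow blocks and differ at 1 additional block and in the length of the last block, while the control rows hold 1 or 2 blocks each.

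The first 5 shared positions lay in the leading 12.66 kb of the gene. Fold values are the authors', are ordered as overexpression replicates 1, 2 and 3, and describe intervals within their own list. The first, at 34108209 to 34108333, had folds of 35.0, 5.79 and 10.05. It was the only one of the 17 positions assigned by the authors to transcript ENST00000527971, and all others were assigned to ENST00000257829. The second, at 34112052 to 34112223, had the lowest NAT10 fold of every overexpression list, at 23.9, 5.07 and 6.83. It was also the longest of the 13, at 172 bases. At 34113716 to 34113838 the folds were 64.6, 13.6 and 14.9. The shortest of the 13, with 62 bases at 34115823 to 34115884, had folds of 49.8, 10.9 and 15.5. A local high followed at 34118180 to 34118294, with 150.3, 27.3 and 38.4. That position ranked 4, 2 and 2 among the NAT10 folds of the 3 lists, and no control list held it.

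The next 4 positions lay below that high in all 3 lists. At 34122459 to 34122592 the folds were 124, 10.7 and 18.9. At 34124302 to 34124400, between 18.67 and 18.77 kb from the gene start, they were 61.3, 5.16 and 10.2. This second low had a fold close to that of the lowest position in overexpression replicate 2, but not in overexpression replicate 1. The position at 34127463 to 34127599 had folds of 147, 19.3 and 16.0, and the one at 34131381 to 34131531 had 97.6, 21.6 and 17.3. These 2 did not stand in the same order in the 3 lists.

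Overexpression replicate 3 then held 1 interval that the other overexpression lists lacked, at 34132125 to 34132221. It was 97 bases long, with a fold of 9.58 and a score of 1084, and its fold was the next to lowest on the gene in that list. The shared position that followed, at 34133026 to 34133142, had folds of 128, 16.7 and 20.2.

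The last 3 shared positions were also the only shared ones held by a control list. At 34135175 to 34135291 the folds were 173, 20.3 and 35.2, against 3.24 in control replicate 3. At 34136642 to 34136775 they were 169.6, 23.0 and 29.7, against 3.44 in control replicate 2. At 34143445 to 34143528 they were 287, 31.6 and 46.4, against 3.40 and 4.91 in control replicates 1 and 2. In each case the control interval had exactly the ends of the overexpression intervals. These 3 positions ranked 2, 3 and 1 by fold in overexpression replicate 1, 5, 3 and 1 in overexpression replicate 2, and 3, 4 and 1 in overexpression replicate 3. No position was in all 3 control lists.

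At the gene end the overexpression lists shared a start but not an end. The interval from 34146084 ran to 34146910 in overexpression replicates 1 and 2, over 827 bases, and to 34146307 in overexpression replicate 3, over 224 bases. The longer form ended 2 bases past the RefSeq gene end. Its folds were 34.6 and 9.25 in overexpression replicates 1 and 2, and the shorter form had 16.8 in overexpression replicate 3. Intervals longer than 827 bases made up 5.4% and 6.95% of the lists of overexpression replicates 1 and 2 but 0.773% of that of overexpression replicate 3. No control list had an interval there.

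**Figure D3:**
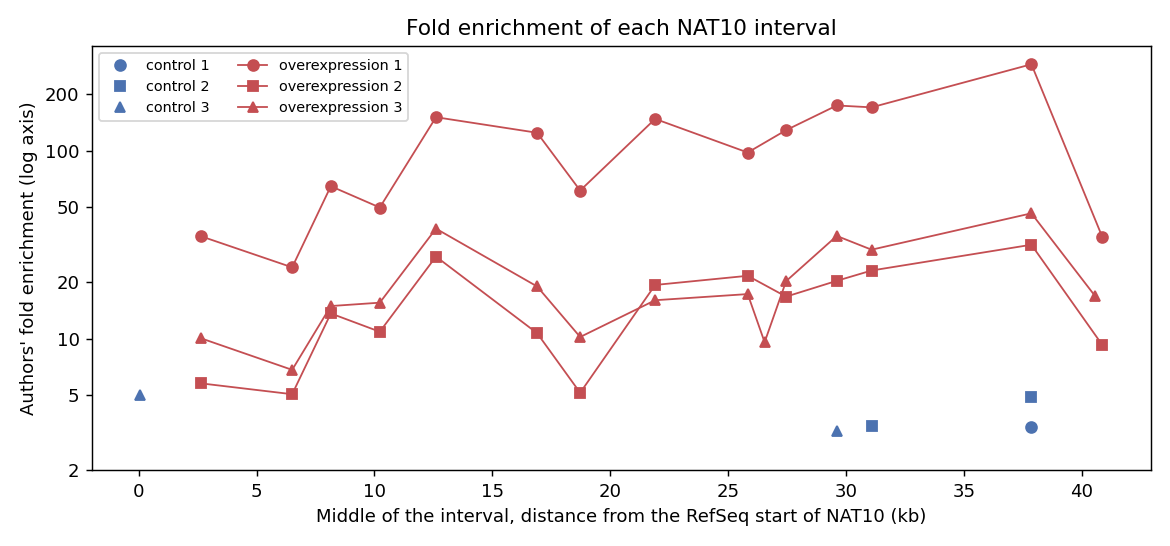
Authors' fold enrichment (log axis) of each NAT10 interval against the distance of its middle from the RefSeq gene start in kb, 1 series per list. The 3 overexpression series have their lowest value at the second position and their highest at 34143445 to 34143528 (287, 31.6 and 46.4), and the 5 control points lie at 3.24 to 5.01.

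The folds of the 13 shared positions followed a similar order in the 3 overexpression lists and, within these 13, were higher at later positions. Spearman's rank correlation between lists was 0.86 for replicates 1 and 2, 0.93 for replicates 1 and 3 and 0.88 for replicates 2 and 3. The same correlation between fold and place along the gene was 0.84, 0.70 and 0.76 in replicates 1, 2 and 3, and between fold and interval length −0.22, −0.19 and −0.34. With every interval of the list included, the correlation with place was 0.53 over 14, 0.50 over 14 and 0.58 over 15 intervals, and the interval at the gene end ranked 13, 11 and 8 by fold. These describe positions of 1 gene that share libraries and transcript, so no p is given. In replicate 1 the 7 positions of the leading part of the gene had a median fold of 61.3 and the 6 of the trailing part 158. The corresponding medians were 10.7 and 20.9 in replicate 2 and 14.9 and 25.0 in replicate 3. The ranges met in all 3 lists: the local high at 34118180 exceeded the lowest trailing position in each.

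The same intervals stood at different places among all intervals of their lists. The highest NAT10 fold was the highest of any gene in overexpression replicate 1, and ranked 43 of 5949 genes in replicate 2 and 15 of 2306 in replicate 3. Among the 100 intervals of highest fold in a list, 13, 2 and 4 were on NAT10. All 14 intervals of overexpression replicate 1 lay above the median fold of their list, as did 11 of 14 in replicate 2 and 14 of 15 in replicate 3. The lowest position, at 34112052, exceeded 98.5%, 28.4% and 46.9% of the intervals of the 3 lists. In the control lists all NAT10 intervals lay below the list median, and the highest exceeded 2.59%, 27.6% and 26.5% of intervals.

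The authors' score, which the headers give as −10 times the log10 of the p-value, reached a repeated value of 3100 on many of these intervals. All 14 NAT10 intervals of overexpression replicate 1 had it, as did 7 of 14 in replicate 2 and 7 of 15 in replicate 3. Those lists held 68, 51 and 13 intervals with that score over all genes, on 42, 36 and 7 genes. Ties at 3100 have no order, and 1 NAT10 interval scored above it, at 34113716 in replicate 3 with 3201. The lowest NAT10 scores were 3100, 586 and 1073 in overexpression replicates 1, 2 and 3, while the control intervals scored 50.9 to 181.6. The authors' false discovery rate, read as percent, stood at 100 on every NAT10 interval of the overexpression lists and on that of control replicate 1, and between 30.97 and 79.64 on those of control replicates 2 and 3. A rate of 100 stood on all intervals of control replicate 1 and overexpression replicate 3, and on 0.431%, 32.6%, 19% and 19.4% of the intervals of control replicates 2 and 3 and overexpression replicates 1 and 2.

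In genomic coordinates, the gaps between neighbouring intervals were long against the intervals themselves. These distances include any introns, so they are not distances along the messenger RNA. In overexpression replicates 1 and 2 the 13 gaps ran from 1350 to 6669 bases, with a median of 2295. In overexpression replicate 3 the added interval made 14 gaps, from 593 to 6669 bases, with a median of 2163.5. The longest gap in each list was that between 34136775 and 34143445, just before the position of highest fold.

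The caller numbered its peaks in genomic order, which shows whether further peaks were called between those listed. On NAT10, 12 of 13, 12 of 13 and 13 of 14 neighbouring pairs in overexpression replicates 1, 2 and 3 had consecutive numbers. Over the neighbouring pairs of all other genes the share was 59.8%, 52.9% and 75.3%. Those pairs lay at any distance and were not matched to the gap lengths on NAT10. The only pair with skipped numbers was, in all 3 lists, the pair around the gap of 6669 bases. The skipped peaks there were not analysed here, so that gap is not shown to be free of called peaks, whereas no number was skipped in the other gaps.

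The share of overlapping intervals with the same ends in a pair of lists was higher on NAT10 than over other genes, which was not tested. Overexpression replicates 1 and 2 shared both ends of 14 of their 14 overlapping NAT10 intervals, against 62.3% of overlapping intervals on other genes. Replicates 1 and 3 shared both ends of 13 of 14, against 32.6%, and replicates 2 and 3 of 13 of 14, against 30.0%. Over all genes, 186 of the 24271 positions of any overexpression list had the same ends in all 3, which is 0.766%. Of these 186, NAT10 held 13, or 6.99%, and no other gene held more than 3. Positions that also overlapped no control interval numbered 24, or 0.0989% of the 24271, and 10 of them, 41.7%, were on NAT10. The other 14 lay on 14 genes, 1 each. The 24 became 40 or 42 if control replicate 2 or 3 was dropped, and 50, 64 or 526 if overexpression replicate 1, 2 or 3 was, with 10 or 11 on NAT10 each time.

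Over the 6 lists, no other gene had as wide a distance between the groups in interval counts as NAT10. A distance in covered bases was not computed. Within overexpression replicates 1, 2 and 3, NAT10 ranked 12, 11 and 1 by number of intervals and 199, 234 and 2 by covered bases. Its fewest intervals in an overexpression list exceeded its most in a control list by 12. The next genes, ATXN1, EPPK1 and PAOX, reached 2. ATXN1, which encodes a transcriptional repressor, and PAOX, a polyamine oxidase, each had 0 intervals in all control lists and 2 in all overexpression lists. EPPK1, which encodes the keratinocyte cytolinker epiplakin, had 4, 5 and 5 in control and 9, 7 and 7 in overexpression lists. The other 38 of the 42 genes reached 1. In the reverse direction 151 genes, or 1.39%, had fewer intervals in every overexpression list than in any control list, by at most 2. Dropping control replicate 1, 2 or 3 raised the 151 to 916, 238 or 236. Dropping overexpression replicate 1, 2 or 3 raised it to 327, 389 or 169. Without control replicate 2 and overexpression replicate 3, the longest and the shortest list, the collagen gene COL27A1 reached 13 against 12 for NAT10, and no other gene reached 12.

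**Figure D4:**
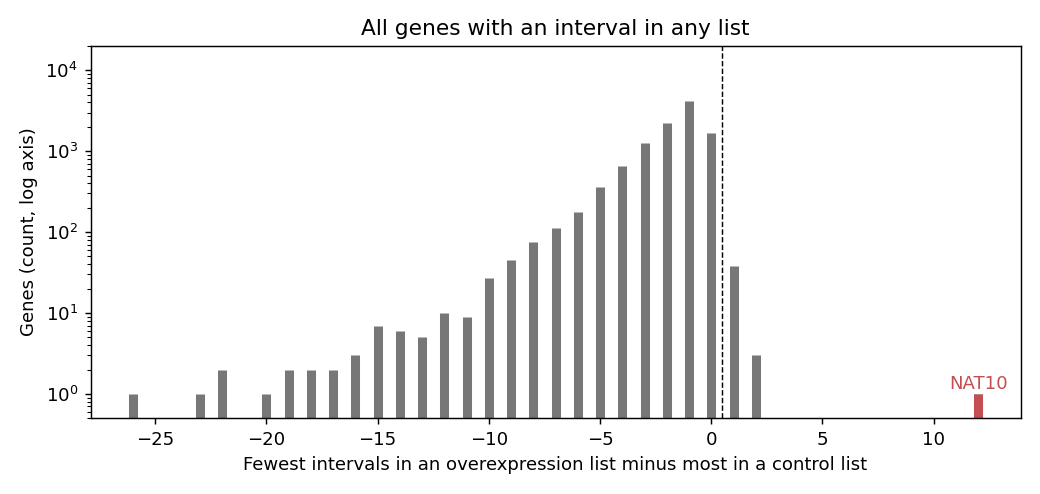
Genes by the fewest intervals in an overexpression list minus the most in a control list, for the 10870 genes with an interval in any list (count on a log axis), with NAT10 in red. Values right of the dashed line belong to the 42 genes whose groups do not overlap in that direction, and NAT10 lies at 12 while all others lie at 2 or lower.

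The gene whose counts over the 6 lists were most like those of NAT10 was RPTOR, which encodes the mTORC1 scaffold raptor. Likeness was the Euclidean distance over log2(intervals + 1), over 6 lists. RPTOR, at a distance of 2.28, had 1, 3 and 5 intervals in control and 13, 6 and 4 in overexpression lists, so its groups overlapped. EVPL, which encodes the cornified-envelope protein envoplakin, followed at 2.35, with 1, 2 and 4 intervals in control and 6, 5 and 5 in overexpression lists, so its groups did not overlap. EPPK1 came next at 2.43, and its groups, given above, did not overlap either. XDH, the xanthine dehydrogenase gene, and NLRC5, a regulator of MHC class I genes, both at 2.57, had 1, 3 and 2 against 6, 6 and 3 and 0, 4 and 6 against 6, 9 and 5, and overlapped. RPTOR had 1 position with the same ends in all 3 overexpression lists, and the other 4 had 0, against 13 on NAT10.

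The genes beside NAT10 did not share its pattern. CAPRIN1, which encodes a cell-cycle-associated RNA-binding protein, had 0, 1 and 1 intervals in control and 1, 1 and 0 in overexpression lists, all ending 33.6 kb before the NAT10 start with folds of 2.55 to 3.07. ABTB2, on the other side, had 0, 3 and 3 in control and 2, 10 and 0 in overexpression lists. CAT, the catalase gene beyond it, had 0, 1 and 1 and 1, 1 and 0. No interval of another gene lay inside NAT10 in any list.

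Genes that work with NAT10 had intervals in fewer overexpression than control lists more often than the reverse, as did all genes together. Of 17 partners and regulators, 12 had an interval: 1 in more overexpression lists, 7 in more control lists and 4 in equally many. The 1 was NOL10, a small-subunit processome protein, with 0, 4 and 0 control and 3, 2 and 0 overexpression intervals. NCL, which encodes the nucleolar protein nucleolin, had 3 in each control list and 2, 0 and 0 in the overexpression lists, and was the only 1 of the 12 whose groups did not overlap, in a direction shared by 1.39% of all genes. SIRT1, a deacetylase reported to act on NAT10, had 1, 1 and 1 against 2, 2 and 1, and PARP1, a poly-ADP-ribose polymerase, had 3, 6 and 6 against 5, 6 and 0. THUMPD1 had 1 interval, in control replicate 2.

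Of 49 genes of the small-subunit processome, in which NAT10 works on pre-ribosomal RNA, 40 had an interval. Overexpression lists were the more numerous for 5 of them and control lists for 28. Their groups separated downward for 2 of the 40, beside 151 of the 10870 genes, namely UTP6 with 1, 2 and 1 against 0, 0 and 0, and UTP14A with 2, 1 and 1 against 0, 0 and 0. DHX37, a helicase of the complex, had 3, 4 and 11 against 8, 10 and 1. Of 10 genes for other enzymes or readers of modified RNA cytidines, 7 had an interval, 5 of these in more control lists and 0 the other way. The median difference in lists with an interval was −1 for each of these 3 groups and 0 over all 10870 genes, of which 25.6% leaned towards the overexpression lists and 46.3% towards the control lists by the same count. Overexpression replicate 3, the shortest list, held 3, 6 and 0 genes of these groups. Control replicate 2, the longest list, held 12, 36 and 7. List length was not adjusted for in these counts. AATF, NOL10 and NGDN were counted both among the partners and in the processome.

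The control lists held 4324 to 19261 intervals over all genes and the overexpression lists 3105 to 12157. The part of list length in the NAT10 result was not tested. The alternative with equally long lists kept the 3105 intervals of highest score in each, and the difference was 14.0 intervals. NAT10 intervals scored at least 586 in the overexpression lists but 50.9 to 181.6 in the control lists. A cut by score therefore kept the former and dropped most of the latter, so it cannot show the part of list length. Of 14 keratinocyte markers, 13 had an interval in at least 1 list, with 5, 10 and 10 of them in control and 10, 10 and 3 in overexpression lists. KRT5 was among these, TP63 was listed in control replicates 2 and 3 only, and SFN had none. Markers of other cell types numbered at most 2 per list for any type. Those listed anywhere were 3 of 5 endothelial, 1 of 5 immune, 3 of 6 melanocyte and 2 of 6 fibroblast genes. Of the melanocyte genes, PMEL was in control replicate 2, SOX10 in overexpression replicate 1 and MITF in overexpression replicates 1 and 2. MLANA, TYR and DCT were in no list. As shares they were not lower in every list, since control replicate 1 held 2 of 5 endothelial and 5 of 14 keratinocyte markers. An interval is not an expression level, so these counts bear on cell identity only loosely, and their part in the NAT10 result was not tested.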

How the data were processed

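The deposited files are 6 peak lists on mRNA, 1 per replicate. FastQC, cutadapt 1.9.3, HISAT2 2.0.4 and GRCh38 were used per the submitters' processing notes. The caller is MACS by the peak names, in a version the sources do not state. Each peak has a score (−10 times log10 of the p-value), a linear fold enrichment, a length and a false discovery rate, per the file headers. The unit of the deposited false discovery rate is not stated, and it was read as percent because its values reach 100. Both are values of the authors, used to rank and filter intervals within a list and set side by side between lists as a description, with no test.

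Groups and replicate numbers came from the sample titles. Starts count from 0 in the deposited lists and are printed counting from 1. Empty lines, 3 in control replicate 2 and 2 in overexpression replicate 2, were skipped. Rows with the same gene and ends in a list were counted as 1 interval. Lists were read with Python 3.11.15, pandas 2.3.3 and numpy 2.4.6. Groups were compared by two-sided exact permutation tests, whose calculation was checked on made-up values with a known answer. The genes named were NAT10, the 5 nearest to it in log2(intervals + 1), its chromosomal neighbours, its partners and regulators, the small-subunit processome, and other cytidine-modifying enzymes, with examples from each list. The planned neighbours were the nearest genes with an interval on each side. CAT was nearest in no list and so lay outside that rule. FBXO3 and TRIM44, nearest in control replicate 1, and FBXO3 and PDHX, nearest in overexpression replicate 3, were not described. ATXN1, PAOX and COL27A1 were chosen after their values were seen. In the processome list, 1 symbol was read through its RefSeq synonym, as UTP25 and DIEXF are 1 gene. The members and lists were chosen with earlier results of these data known. The planned exon and sequence features of intervals were not computed, as no genome sequence was used here. Alternatives were a fold of at least 4, a score of at least 100, equal list lengths, other overlap rules, pairing by replicate number and leaving out lists. For equal list lengths, each list was cut to its 3105 intervals of highest score.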

Additional observations from a re-analysis of the deposited data

How the results depend on the processing

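The difference in NAT10 intervals stayed between 12.3 and 14.0, that in covered bases between 1940.7 and 2201, the positions with the same ends in the overexpression lists between 13 and 14, and those clear of control intervals between 10 and 12, under every alternative run for each. The fold, score and equal-length cuts removed only control intervals of NAT10, as its lowest overexpression fold and score were 5.07 and 586. They could therefore only widen the differences, and are no check on them. Control means fell to 0.667 intervals with a fold of at least 4 and to 0.333 with the score and equal-length cuts. Counting deposited rows or merging could not change the count, as no NAT10 intervals of a list touched or overlapped. With a replicate block the differences were 12.7 intervals and 2025 bases (exact sign-flip test of paired values, p = 0.25, the smallest possible). Deviations of same-numbered lists correlated at −0.108, 0.018 and −0.091 over genes, below the 0.1 in every pair that was required to treat the numbers as pairs, and the labels do not state whether they are. The count of genes with more intervals in every overexpression list, 42, was less stable. It was 34 to 53 with a fold of at least 4, a score of at least 100 or equal list lengths, and 49 to 481 with 1 list left out, namely 192 without control replicate 2, 88 without control replicate 3, and 103, 95 and 481 without overexpression replicates 1, 2 and 3. Without the longest and the shortest list, an alternative chosen after seeing the data, it was 1407, and COL27A1 then reached a separation of 13 against 12 for NAT10. Under the other alternatives no gene except NAT10 exceeded 6. The count of positions over all genes, 24, was also recomputed after seeing the data: it was 40 and 42 without control replicates 2 and 3, 50, 64 and 526 without overexpression replicates 1, 2 and 3, and 872 without the longest and the shortest list, with 10 to 12 on NAT10 in each. The count of genes by covered bases, 90, was 54 with a score of at least 100 and 1673 without the longest and the shortest list, and that of genes with fewer intervals in every overexpression list, 151, was 93 with equal list lengths and 265 without those 2 lists, all added after seeing the data. Read depth is unknown, so the part of depth in list length could not be measured.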
